A study of Saccharomyces cerevisiae with 6 samples.

Results

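The flocculin genes of Saccharomyces cerevisiae were examined in ccr4Δ pbp1Δ, ccr4Δ and wild-type cells on 1-colour Agilent yeast arrays. The genes were taken by systematic name: FLO1 (YAR050W), FLO5 (YHR211W), FLO9 (YAL063C), FLO10 (YKR102W), FLO11 (YIR019C), FLO8 (YER109C) and the flocculin-like genes YHR213W and YAR062W. Of these 8 genes, 7 had a probe, out of 6225 genes on the array. No row carried the name YAR062W, and it was not analysed here. The set was chosen by the signal of YHR213W, which is high on the ccr4Δ arrays, together with its relatives by name, so the differences between ccr4Δ and wild-type cells are described below without a test.

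The strains derive from W303, a common laboratory background, and every culture was in YPD, a rich glucose medium, at 28 °C. ccr4Δ cells lack CCR4, which encodes a deadenylase that shortens the poly(A) tails of mRNAs, and ccr4Δ pbp1Δ cells also lack PBP1, which encodes a poly(A)-binding protein-binding protein. Wild-type cells carry both genes. Cells of each strain were collected in stationary phase and in log phase, with 1 array of total RNA for each of the 6 groups. There were no replicates. Whether the growth phases of a strain came from 1 culture is not given in the sources used here. By the strain list of the study, ccr4Δ cells are of mating type a and wild-type cells of mating type α, and a ccr4Δ pbp1Δ strain is not on it.

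Flocculins are large cell wall glycoproteins held by a glycosylphosphatidylinositol anchor. Flo1, Flo5, Flo9 and Flo10 bind mannose chains on neighbouring cells and make cells clump, and Flo11 (also called Muc1) serves in adhesion to surfaces, invasive growth and filament formation. Their genes lie mostly near chromosome ends and are silent or weakly transcribed in many laboratory strains. Flo8 is not a surface protein but a transcriptional activator of flocculin genes downstream of cAMP-dependent protein kinase, and FLO8 is annotated as a pseudogene in the reference genome. YHR213W is an open reading frame similar to part of the flocculins whose product has no established role. The repeats of these genes are alike, and probe sequences were not used here, so how far a probe reads its relatives was not tested.

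The arrays carried the deletions given in the labels. CCR4 was well above background on both wild-type arrays and not on the 4 others, with a signal at least 134-fold lower in ccr4Δ than in wild-type cells in stationary phase and at least 108-fold lower in log phase. PBP1 was at least 237-fold lower in ccr4Δ pbp1Δ than in ccr4Δ cells in stationary phase and at least 491-fold lower in log phase. Here the dim side of a ratio is replaced by the lowest signal well above background on its array. Probes well above background made up 92.7% to 98.4% of each array. Slide 2 held 5 of the arrays and slide 1 held that of wild-type log phase cells, so slide and strain cannot be told apart in comparisons with wild-type cells in log phase.

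Levels are given as the spot signal in percent of the 75th percentile of the same array, and ratios as log2 differences of these values. A level can be set against the same gene on another array, not against another gene. All 8 probes of the 7 genes were well above background on all 6 arrays. Paired spots of these probes had an SD of 0.058 on the log2 scale over 48 pairs, with the widest pair 0.21 apart. This covers printing and hybridization within an array only, and the spread between cultures is unknown. A ratio of at least 1.5-fold, or 0.58 on the log2 scale, is called past the limit.

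YHR213W stood out among the relatives. In stationary phase its level was 9.40% in ccr4Δ pbp1Δ, 19.9% in ccr4Δ and 3.09% in wild-type cells. In log phase it was 5.58% in ccr4Δ pbp1Δ, 12.8% in ccr4Δ and 1.80% in wild-type cells. ccr4Δ cells had the highest level in each phase and wild-type cells the lowest. The set was chosen by this signal, so the order and the ranks that follow are part of that choice. The gene was 6.45-fold higher in ccr4Δ than in wild-type cells in stationary phase, the 29th highest ratio of 6034 measured genes, and 7.15-fold higher in log phase, the 31st of 5765. Its level in ccr4Δ pbp1Δ cells was 3.04-fold that of wild-type cells in stationary phase and 3.11-fold in log phase. The array has 2 probes under the name YHR213W, which differed by 0.045 to 0.10 on the log2 scale on each array, always in the same direction. Whether either of them reads YHR213W alone was not tested, so their likeness does not tie the signal to this gene.

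FLO11, the adhesin of invasive growth, was high on 1 array. In stationary phase its level was 3.60% in ccr4Δ pbp1Δ, 10.6% in ccr4Δ and 1.70% in wild-type cells, and in log phase it was 3.06% in ccr4Δ pbp1Δ, 3.31% in ccr4Δ and 2.05% in wild-type cells. The ccr4Δ stationary phase array thus stood above the 5 others, which lay between 1.70% and 3.60%. The ratio of ccr4Δ over wild-type was 2.63 on the log2 scale in stationary phase (6.21-fold, the 33rd highest of 6034) and 0.69 in log phase (1.61-fold, the 624th of 5765). The log phase ratio lies near the limit, and it fell inside it under quantile normalization (0.49), under normexp background correction (0.54) and in the authors' processed values (0.49).

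FLO1, the best known flocculin of cell-to-cell clumping, was higher in both mutants. Its level in stationary phase was 18.9% in ccr4Δ pbp1Δ, 26.0% in ccr4Δ and 11.02% in wild-type cells. In log phase it was 9.59% in ccr4Δ pbp1Δ, 14.7% in ccr4Δ and 3.82% in wild-type cells. The order of the strains was the same in each phase as for YHR213W. The ratio of ccr4Δ over wild-type was 1.24 on the log2 scale in stationary phase (2.36-fold) and 1.94 in log phase (3.84-fold, the 79th highest of 5765), so unlike FLO11 the larger ratio of FLO1 was in log phase.

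**Figure D1:**
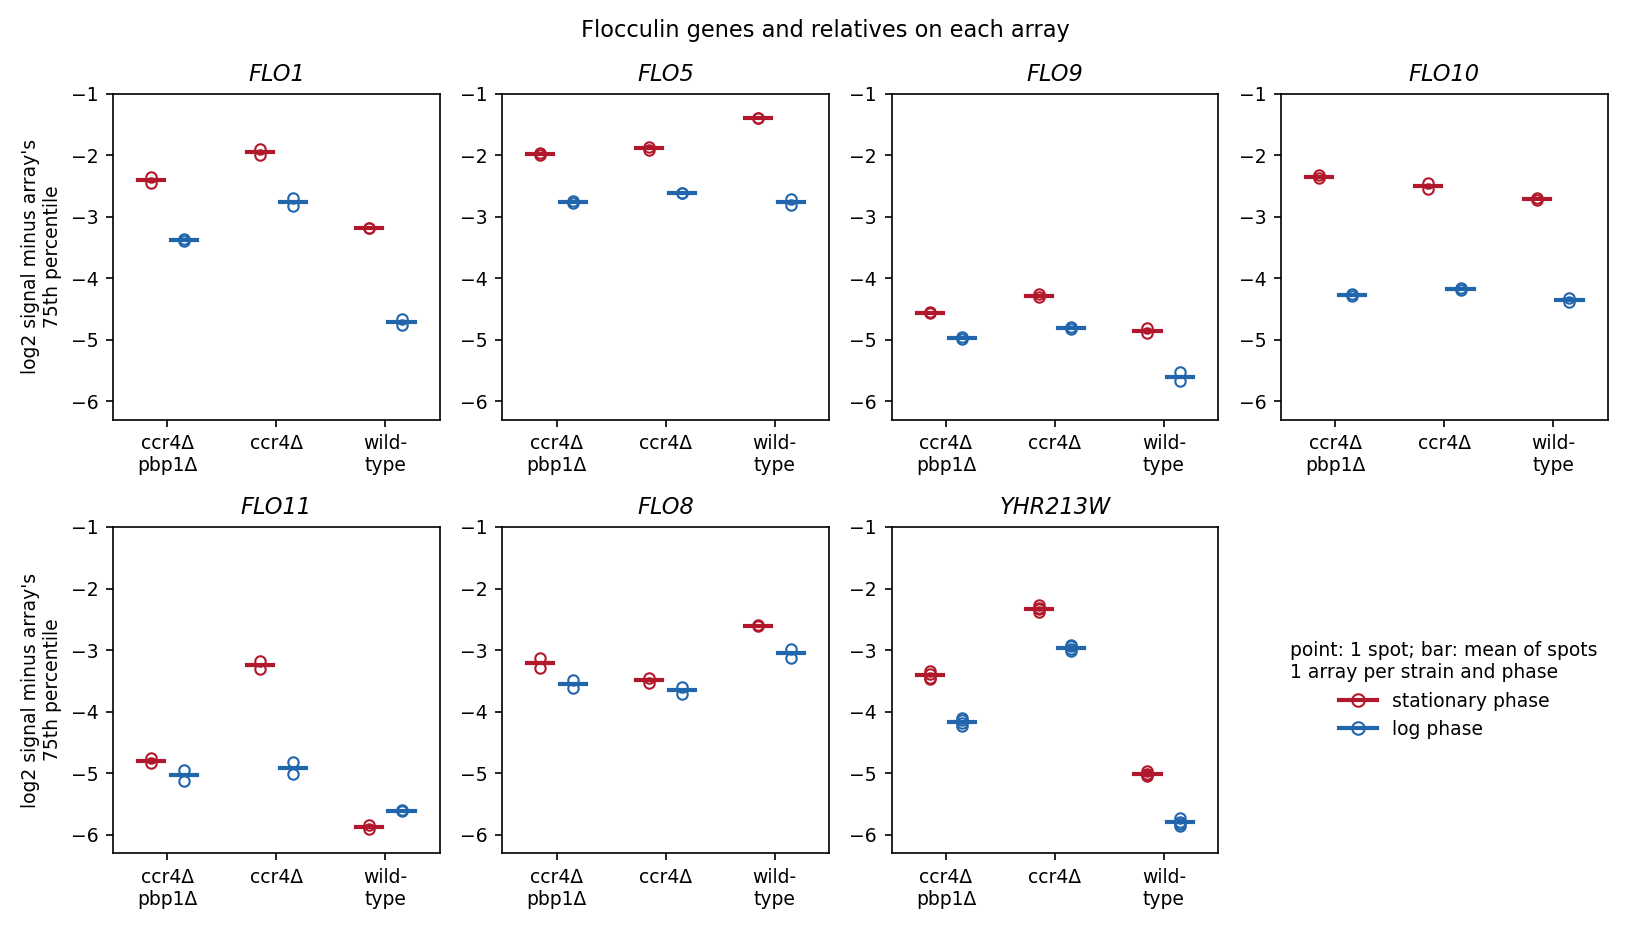
Levels of the 7 genes on the 6 arrays. Each panel is 1 gene, the x axis gives the strain, the y axis the log2 signal minus the 75th percentile of the array, points are single spots and bars their mean, with stationary phase in red and log phase in blue. YHR213W and FLO1 are highest in ccr4Δ cells in both phases, FLO11 stands out only on the ccr4Δ stationary phase array, and FLO10 separates the growth phases in all 3 strains.

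The remaining flocculin genes differed less between strains. FLO9, a close relative of FLO1, had levels of 4.24% in ccr4Δ pbp1Δ, 5.11% in ccr4Δ and 3.46% in wild-type cells in stationary phase, and of 3.19% in ccr4Δ pbp1Δ, 3.56% in ccr4Δ and 2.06% in wild-type cells in log phase. Its order of strains was that of FLO1, with a log2 ratio of ccr4Δ over wild-type of 0.56 in stationary phase, just inside the limit, and 0.79 in log phase. In stationary phase the ratio passed the limit in 4 of the alternative settings (0.59 to 0.70) and was 0.16 with no scaling of the arrays. FLO10, a flocculin that can also serve in adhesion, had levels of 19.6% in ccr4Δ pbp1Δ, 17.6% in ccr4Δ and 15.2% in wild-type cells in stationary phase, and of 5.17% in ccr4Δ pbp1Δ, 5.52% in ccr4Δ and 4.89% in wild-type cells in log phase. All ratios of FLO10 between strains lay inside the limit, and the sign of ccr4Δ over wild-type in stationary phase (0.21) turned with no scaling (−0.19).

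FLO5, a near copy of FLO1 in sequence, did not follow it. Its level in stationary phase was 25.3% in ccr4Δ pbp1Δ, 27.0% in ccr4Δ and 38.0% in wild-type cells, and in log phase it was 14.7% in ccr4Δ pbp1Δ, 16.3% in ccr4Δ and 14.7% in wild-type cells. The wild-type array was thus the highest of the 3 in stationary phase, and the ratio of ccr4Δ over wild-type was −0.49 there and 0.15 in log phase. The stationary phase ratio passed the limit only with no scaling (−0.89).

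FLO8, the activator, was lower in both mutants. In stationary phase its level was 10.8% in ccr4Δ pbp1Δ, 8.90% in ccr4Δ and 16.5% in wild-type cells. In log phase it was 8.52% in ccr4Δ pbp1Δ, 7.94% in ccr4Δ and 12.0% in wild-type cells. Wild-type cells were the highest in each phase. The ratio of ccr4Δ pbp1Δ over wild-type was −0.61 in stationary phase, near the limit, and −0.50 in log phase, inside it. The ratio of ccr4Δ over wild-type was −0.89 in stationary phase and −0.60 in log phase, where it came inside the limit under quantile normalization and in the authors' processed values (−0.52 in each).

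In counts, 3 of the 7 genes were past the limit upward in ccr4Δ over wild-type cells in stationary phase (YHR213W, FLO11 and FLO1), against 22.6% of all measured genes, and 1 was past it downward (FLO8), against 29.1%. In log phase 4 were past it upward (the same 3 and FLO9), against 13.6%, and FLO8 downward, against 15.9%. The median log2 ratio of the 7 genes was 0.56 in stationary phase, where that of all genes was −0.085, and 0.69 in log phase, where that of all genes was −0.072. YHR213W, FLO11 and FLO1 were past the limit upward in both phases, as 6.25% of genes were, and FLO8 was past it downward in both, as 8.6% were. Since this contrast was used to choose the set, these counts describe it and carry no test.

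The ccr4Δ and wild-type arrays also differed in mating-type genes. Of 7 a-cell markers, which include the pheromone receptor gene STE2, all 7 were higher in ccr4Δ cells in stationary phase (median log2 ratio 4.84), and all 5 of those measured on both arrays in log phase (6.18). MFA2 and AGA2 were not well above background in wild-type log phase cells. Of 4 α-cell markers, 3 were past the limit downward in ccr4Δ cells in stationary phase (median −3.31) and 4 in log phase (−7.65). The summed signal of the a-cell markers was 75001 units in ccr4Δ and 4068 in wild-type cells in stationary phase, and 253415 in ccr4Δ and 3628 in wild-type cells in log phase. Also in ccr4Δ pbp1Δ over wild-type cells, all measured a-cell markers were past the limit upward (median 3.17 in stationary and 5.98 in log phase). All measured α-cell markers were past it downward there (median −1.37 and −8.39). Of the 8 listed marker genes of stationary phase, such as the small heat shock genes HSP12 and HSP26, 6 were measured in ccr4Δ and wild-type log phase cells and all 6 were higher in ccr4Δ cells (median 3.03). In stationary phase the median of the 7 measured was −0.083. The part of mating type and of growth state in the flocculin ratios was not tested.

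With PBP1 deleted as well, YHR213W and FLO11 were the genes of the set that differed furthest from ccr4Δ cells. The log2 ratio of ccr4Δ pbp1Δ over ccr4Δ for YHR213W was −1.08 in stationary phase, with single spots between −1.13 and −1.07, and −1.20 in log phase, with spots between −1.26 and −1.11. FLO11 had a ratio of −1.55 in stationary phase, with spots between −1.58 and −1.52, and −0.12 in log phase. YHR213W thus differed by about the same amount in each phase, while FLO11 differed past the limit in stationary phase only. The ratio of FLO1 was −0.46 in stationary phase and −0.61 in log phase, where 5 of the alternative settings put it inside the limit (−0.54 to −0.47).

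FLO9 (−0.27 in stationary phase and −0.16 in log phase), FLO5 (−0.093 and −0.15), FLO10 (0.16 and −0.096) and FLO8 (0.28 and 0.10) were inside the limit in this comparison, and the log phase signs of FLO9, FLO10 and FLO11 turned under at least 1 other scaling, with values up to 0.035, 0.046 and 0.11, as did the stationary phase sign of FLO5, with values up to 0.14. In stationary phase 2 of the 7 genes were past it downward (YHR213W and FLO11), against 10.8% of all measured genes, and 0 upward, against 10.4%. In log phase 2 were past it downward (YHR213W and FLO1), against 7% of genes, and 0 upward, against 1.52%. YHR213W alone was past it downward in both phases, as 1.92% of genes were. This comparison and that with wild-type cells share the ccr4Δ arrays. The high signal of YHR213W on them chose the set, which favours a negative ratio for it here. Its place among the 1.92% is thus a description and carries no test. The stationary phase markers were also lower in ccr4Δ pbp1Δ than in ccr4Δ log phase cells for 7 of 7 measured genes (median −1.87), with a median of −0.14 in stationary phase. The a-cell markers were past the limit downward for 6 of 7 genes in stationary phase (median −1.37) and for 2 of 7 in log phase (median −0.18). Of the 3 α-cell markers measured in stationary phase, 2 were past it upward and 1 downward (median 0.64). In log phase 3 of 4 were past it downward (median −1.28). The part of these markers in the flocculin ratios was not tested.

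The level of ccr4Δ pbp1Δ cells lay between those of ccr4Δ and wild-type cells for 5 of the 7 genes in stationary phase and 6 in log phase. The exceptions were FLO5 in both phases and FLO10 in stationary phase. The share of all genes with this order was not counted, so these counts describe the 7 genes only. Some neighbours in this order differed by less than the widest pair of spots. This held in log phase between both mutants for FLO8, FLO9, FLO10 and FLO11, with log2 ratios between −0.16 and 0.10, between ccr4Δ pbp1Δ and wild-type cells for FLO5 (−0.0015) and FLO10 (0.079), and between ccr4Δ and wild-type cells for FLO5 (0.15). In stationary phase it held between the mutants for FLO5 (−0.093) and FLO10 (0.16). Against wild-type cells, ccr4Δ pbp1Δ cells had 3 genes past the limit upward in stationary phase (YHR213W, FLO11 and FLO1), against 24% of all genes. Downward there were 2 (FLO5 at −0.59 and FLO8 at −0.61), against 29.5%. Both came inside the limit under median scaling, quantile normalization, normexp and in the authors' values (−0.57 to −0.43). In log phase 3 were past it upward (YHR213W, FLO1 and FLO9), against 7.23%, and 0 downward, against 9.82%.

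**Figure D2:**
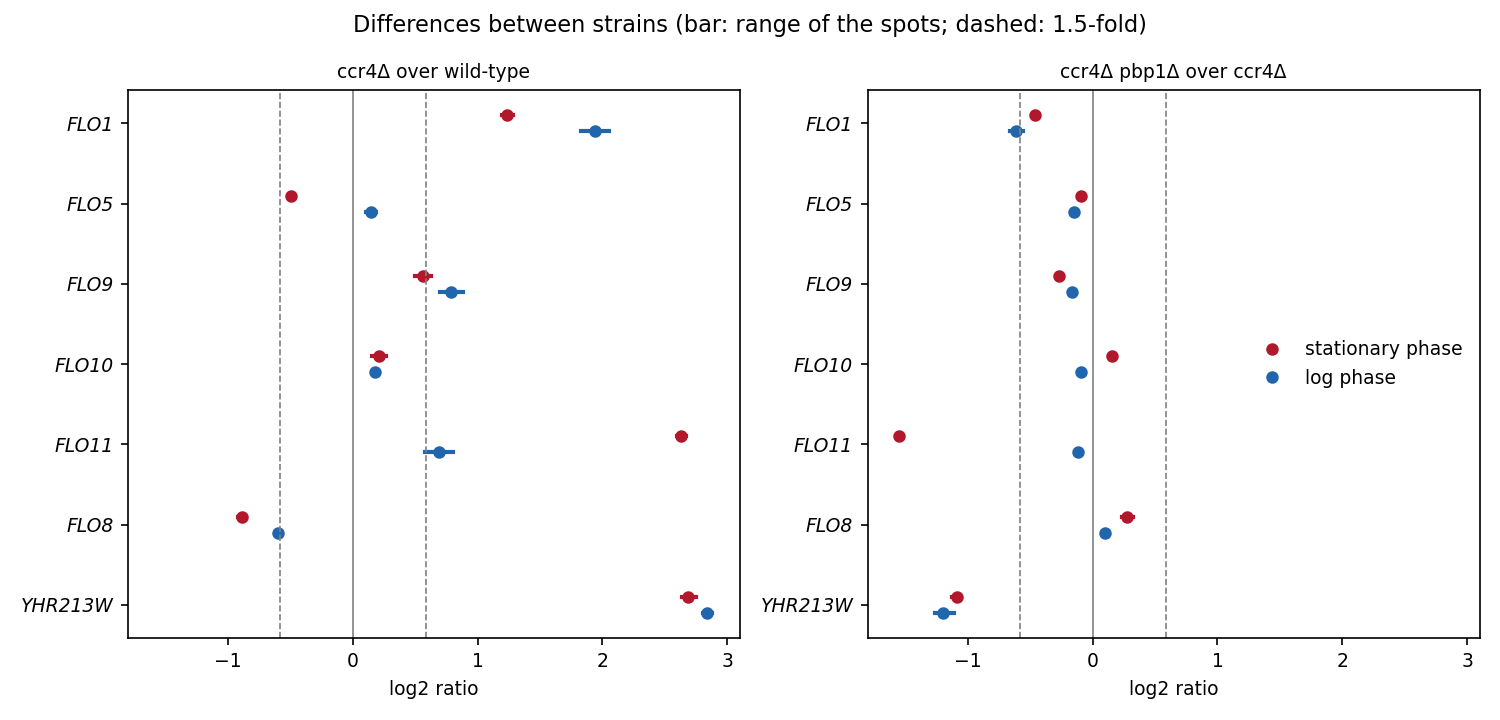
Log2 ratios between strains. The left panel gives ccr4Δ over wild-type and the right panel ccr4Δ pbp1Δ over ccr4Δ; points are ratios of means, bars the range of the single spots, and dashed lines the 1.5-fold limit. YHR213W lies at 2.69 and 2.84 in the left panel and at −1.08 and −1.20 in the right one, while FLO11 reaches 2.63 and −1.55 in stationary phase only.

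An additive limma fit of strain and growth phase over the 6 arrays gave no call for ccr4Δ pbp1Δ over ccr4Δ. With Benjamini-Hochberg adjustment 0 of 5728 genes measured on all arrays passed (0%), while 120 had an unadjusted p under 0.05. YHR213W had a difference of −1.14 on the log2 scale, given without a test because its signal on the ccr4Δ arrays chose the set. FLO11 had −0.83 (SE 0.48) and FLO1 −0.54 (SE 0.30), and the 4 others lay between −0.22 and 0.19. With no filter on dim probes the fit called 1 gene lower, which was not among the 7, without the ccr4Δ stationary phase array it called 18 lower, and without the ccr4Δ log phase array 1 higher and 6 lower, also with none of the 7 among them. The fit has 2 residual degrees of freedom and takes the growth phases as repeats of a strain, so a gene that differs in 1 phase only, as FLO11 did, adds to its own error.

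The growth phases were compared in the same fit, which takes the strains as repeats of a phase. With 1 array per group, its error mixes strain differences in the phase ratio with the spread between cultures. The p-values below do not measure that spread alone. Here 4 of the 7 genes rose in stationary over log phase, against 25.7% of the 5728 genes, and 0 fell, against 22.6%. FLO10 rose by 1.75 on the log2 scale (SE 0.22, limma adjusted p = 0.0021), FLO1 by 1.11 (SE 0.25, adjusted p = 0.013), FLO5 by 0.96 (SE 0.24, adjusted p = 0.021) and YHR213W by 0.72 (SE 0.22, adjusted p = 0.035). FLO9 (0.56, SE 0.22, adjusted p = 0.080), FLO11 (0.55, SE 0.39, adjusted p = 0.29) and FLO8 (0.32, SE 0.22, adjusted p = 0.27) did not pass.

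The 14 alternatives of this fit are not all separate checks. Leaving out either array of a strain gave the same phase difference, and the authors' values nearly repeat quantile normalization. Of the genes called in the main fit, FLO10 gave the steadiest reading. It was 3.80-fold higher in stationary than in log phase in ccr4Δ pbp1Δ cells, 3.19-fold in ccr4Δ and 3.11-fold in wild-type cells, and it passed the test under all 14 alternatives, with adjusted p between 0.00067 and 0.016. FLO1 was called in 11 of the 14, FLO5 in 9 and YHR213W in 6. Without either ccr4Δ pbp1Δ array the adjusted p was 0.060 for FLO1. Without either ccr4Δ array or either ccr4Δ pbp1Δ array FLO5 and YHR213W did not pass (adjusted p up to 0.080 for FLO5 and up to 0.21 for YHR213W). The number of genes called was 1 with no scaling, 2 without either ccr4Δ array and 1 without either ccr4Δ pbp1Δ array.

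The phase ratios of the flocculin genes also varied with the strain. The wild-type ratio is the only one whose arrays were on different slides, so strain and slide cannot be told apart where it is set against the others. FLO1 and FLO5 had their largest ratio of stationary over log phase in wild-type cells: for FLO1 it was 0.98 on the log2 scale in ccr4Δ pbp1Δ, 0.83 in ccr4Δ and 1.53 in wild-type cells, and for FLO5 it was 0.78 in ccr4Δ pbp1Δ, 0.73 in ccr4Δ and 1.37 in wild-type cells. FLO11 went the other way, with 0.24 in ccr4Δ pbp1Δ, 1.67 in ccr4Δ and −0.27 in wild-type cells. The phase ratio of FLO11 in ccr4Δ cells (3.19-fold higher in stationary phase) was the only one of the 3 past the limit, and the ratio in wild-type cells had the opposite sign. Under quantile normalization the ratio was −0.52 in ccr4Δ pbp1Δ and −1.01 in wild-type cells, which put the wild-type ratio past the limit too. Without either ccr4Δ array the fitted phase difference of FLO11 was −0.016.

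In ccr4Δ pbp1Δ cells 4 of the 7 genes were past the limit upward in stationary over log phase, against 35.9% of all genes, in ccr4Δ cells 5, against 29.9%, and in wild-type cells 5, against 33.4%, and 0 were past it downward in any strain, against 28.6% of genes in ccr4Δ pbp1Δ, 26.2% in ccr4Δ and 30.5% in wild-type cells. FLO1, FLO5, FLO10 and YHR213W were past it in all 3 strains, as 20.4% of genes were. The dim genes moved most with the scaling of the arrays: for YHR213W the wild-type phase ratio of 0.78 became 0.087 under quantile normalization, and for FLO9 0.75 became 0.023.

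**Figure D3:**
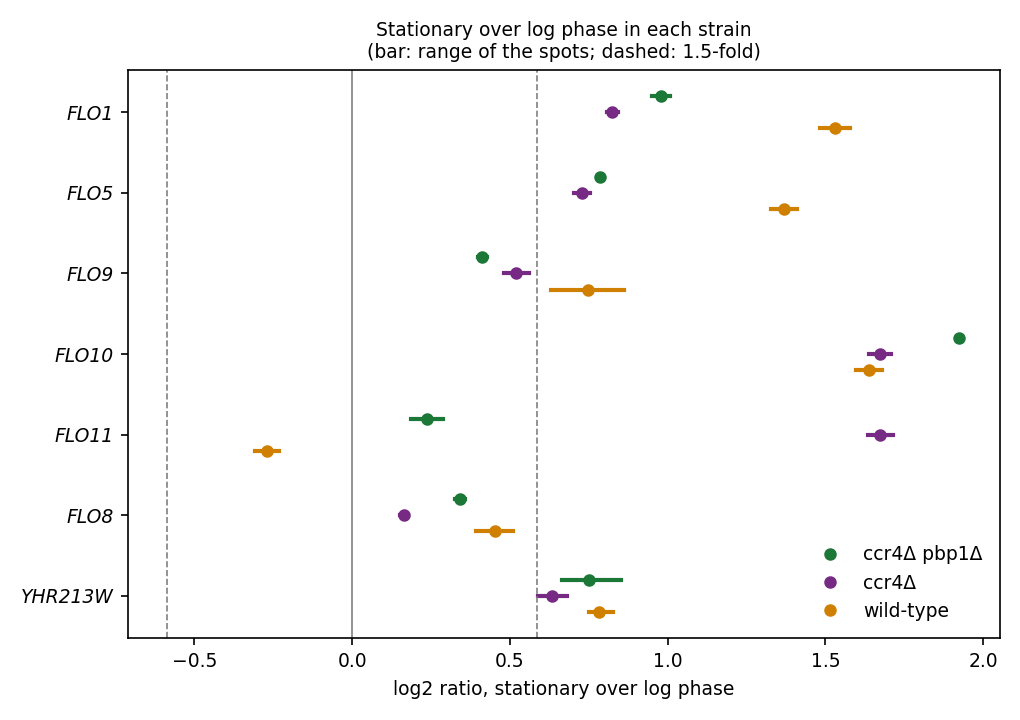
Log2 ratio of stationary over log phase for each gene in ccr4Δ pbp1Δ (green), ccr4Δ (purple) and wild-type (orange) cells. Points are ratios of means, bars the range of the single spots and dashed lines the 1.5-fold limit. FLO10 lies at 1.64 to 1.92 in all strains, whereas FLO11 spreads between −0.27 in wild-type and 1.67 in ccr4Δ cells.

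FLO11 is controlled by a large regulatory network, so 35 of its regulators were described beside it. They comprise 8 genes of the cAMP and protein kinase A branch, 12 of the filamentation MAP kinase branch, 7 activators and 8 repressors. All 35 were measured in each comparison. In ccr4Δ over wild-type cells 2 were past the limit upward and 13 downward in stationary phase (median log2 ratio −0.32), and 3 upward and 6 downward in log phase (median −0.12). The shares over all genes were those given above for this contrast.

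Of the 35 regulators, 6 were past the limit the same way in both phases, where 6.25% of all genes were past it upward and 8.6% downward. TEC1, a transcription factor that binds FLO11 together with Ste12, had a ratio of ccr4Δ over wild-type of 1.07 in stationary and 0.92 in log phase, and BCY1, the inhibitory subunit of protein kinase A, had 1.005 and 0.93. MGA1, a heat shock factor-like activator, had −2.35 and −3.44, and the MAP kinase gene KSS1 had −1.99 and −0.70. NRG1, a glucose-dependent repressor of FLO11, had −1.38 and −0.65 (−0.57, inside the limit, under normexp in log phase), and CYR1, which encodes adenylate cyclase, had −0.74 and −0.75. Activating and repressing members thus lay on either side.

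Between ccr4Δ pbp1Δ and ccr4Δ cells 2 of the 35 regulators were past the limit upward and 2 downward in stationary phase, against 10.4% and 10.8% of all genes. In log phase 0 were past it upward and 2 downward, against 1.52% and 7%, and none was past it in both phases. TEC1 had −1.05 in stationary phase and −0.15 in log phase in this comparison, beside −1.55 and −0.12 for FLO11. These are ratios on 2 pairs of arrays and no relation between the genes was tested.

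**Figure D4:**
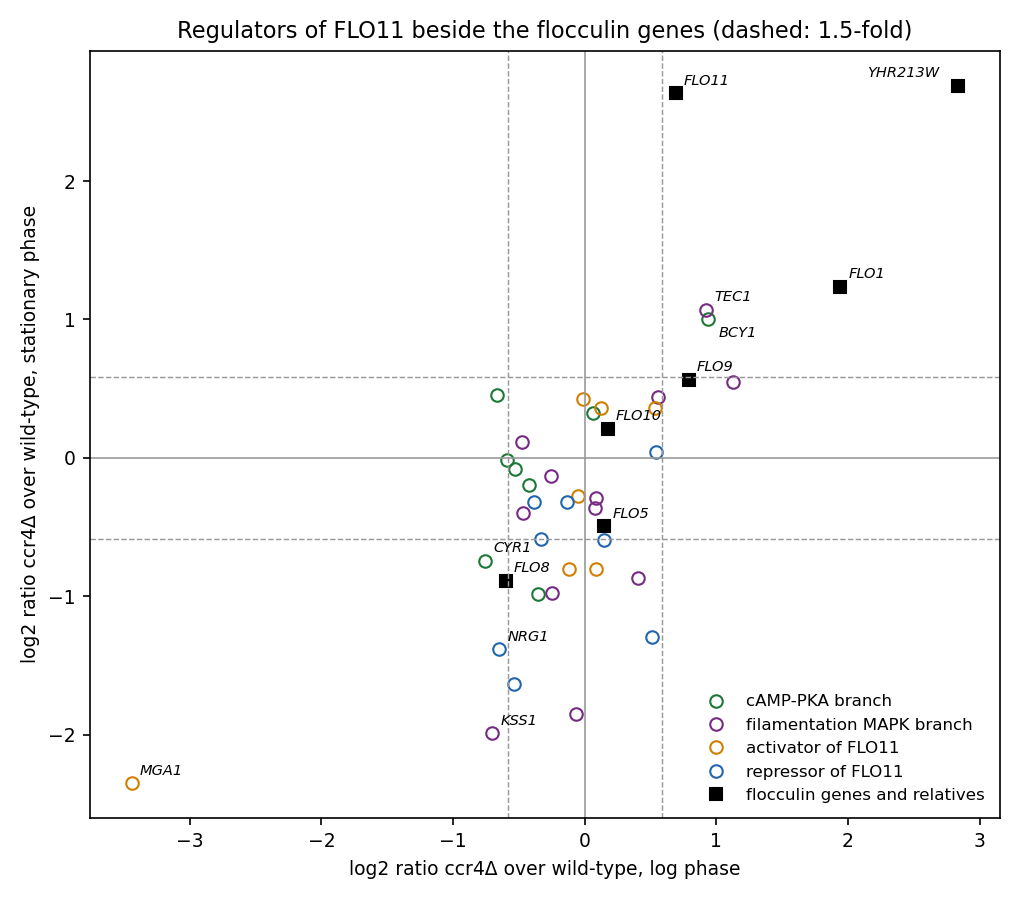
Log2 ratio of ccr4Δ over wild-type for 35 regulators of FLO11 (open circles, coloured by branch) and the 7 flocculin genes and relatives (black squares). The x axis is log phase, the y axis stationary phase and dashed lines the 1.5-fold limit; MGA1 lies lowest in both phases at −3.44 and −2.35, and YHR213W highest at 2.84 and 2.69.

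Cell wall adhesins outside the flocculin family include the agglutinins, which bind cells of opposite mating type. AGA1, the anchor subunit of a-agglutinin, was higher in ccr4Δ than in wild-type cells by 2.67 on the log2 scale in stationary phase and 2.22 in log phase. FIG2, an adhesin of mating cells, had 0.49 and 2.08 in this comparison, and SAG1, the α-agglutinin gene, −0.50 and −2.73. AGA2, the binding subunit of a-agglutinin, had 8.79 in stationary phase and was not well above background in wild-type log phase cells. All 4 of these adhesin genes were past the limit downward in both phases in ccr4Δ pbp1Δ over ccr4Δ cells, as 1.92% of all genes were. AGA1 had −1.32 in stationary and −1.58 in log phase, FIG2 −1.09 and −1.26, and AGA2 −2.73 and −1.79. SAG1 had −0.78 (−0.55, inside the limit, with no scaling) and −1.75. AGA2 and SAG1 are also on the a-cell and α-cell marker lists.

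Most flocculin genes lie near chromosome ends, so their chromosome neighbours were described from a list of 30, of which 25 had a probe and 18 were measured in both phases in ccr4Δ and wild-type cells. Of these 18, 0 were past the limit upward in both phases in ccr4Δ over wild-type cells, against 6.25% of all genes, and 4 were past it downward, against 8.6%: YAL064W-B (−2.28 in stationary and −1.20 in log phase), YAR053W (−1.11 and −1.04) and the acid phosphatase genes PHO12 (−0.78 and −2.79) and PHO11 (−1.46 and −2.90). Next to YHR213W, the nearest listed genes measured on both pairs of arrays were YHR212C, with ratios of −0.52 in stationary and 0.20 in log phase, and YHR214W, with 0.64 and −0.22. Neither shared the 2.69 and 2.84 of YHR213W. SEO1, a permease-like gene near FLO9, was past the limit downward in both phases in ccr4Δ pbp1Δ over ccr4Δ cells (−1.08 and −0.71), though 3 settings put its log phase ratio inside the limit (−0.56 to −0.55).

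The genes whose profile over the 6 arrays was most like that of a flocculin gene were found by the root mean square of the differences between centred log2 values, among 5728 genes. For FLO1 they were PDC6, a minor pyruvate decarboxylase gene (0.20), RNR3, a ribonucleotide reductase gene (0.22), and HXT10, a hexose transporter gene (0.23). For FLO5 they were HSF1, the heat shock factor gene (0.034), UBP7, a ubiquitin protease gene (0.057), and YGL114W (0.078), and for FLO10 they were ATP20, a mitochondrial ATP synthase gene (0.11), YNK1, a nucleoside diphosphate kinase gene (0.12), and FZO1, a mitochondrial fusion gene (0.12). For FLO11 they were PXP2, a peroxisomal protein gene (0.20), HIS5, a histidine synthesis gene (0.27), and MRPL4, a mitochondrial ribosomal protein gene (0.33).

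By this measure, which grows with the spread of a gene, the 3 nearest genes of YHR213W were YGR109W-A (0.34), the maltase gene MAL32 (0.37) and MSY1, a mitochondrial tRNA synthetase gene (0.45). Within the set, the closest pair was FLO5 and FLO8 (0.41), followed by FLO5 and FLO9 (0.44). The gene nearest to FLO1 was FLO9 (0.48) and that nearest to YHR213W was FLO1 (0.53), while FLO8 and YHR213W were farthest apart (1.46). All profiles share the same 6 arrays, so likeness describes these arrays.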

How the data were processed

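Total RNA (100 ng, Cy3) from 6 samples was hybridized to Agilent V2 yeast arrays. Spot intensity values from Feature Extraction 11.0.1.1, background-treated, were deposited by the authors, with a table of processed intensity values with 6316 rows, of which 6256 matched a probe. The sorted values of that table are identical in all 6 columns. From the deposited intensities, control and outlier-marked spots were left out (0 spots of the 7 genes), log2 was taken, and each array's 75th percentile was subtracted. The 2 spots of a probe, then the probes of a gene, were averaged. A gene was measured where both spots of a probe were well above background. Gene names came from RefSeq, in which 5720 of 6225 names were found. The array design follows another build, so no coordinates are given.

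Ratios between pairs of arrays have no replicate and no p-value, and the number of arrays limits their precision. limma 3.58.1 (lmFit, eBayes; R 4.3.3) gave the additive fit (5728 genes, 2 residual degrees of freedom, two-sided, Benjamini-Hochberg at 0.05) and was tested on simulated data. Other steps used Python 3.11.15 and pandas 2.3.3. The genes, the lists and the 1.5-fold limit were chosen with earlier results of these data known. Named with values were all 7 genes, listed neighbours, adhesins and regulators past the limit the same way in both phases, the neighbours that flank YHR213W, and the 3 nearest profiles of each of the 7 genes whose SD over arrays was at least 0.5. As alternatives, each array was left out in turn, the fold limit was set at 2, the prior was trended, the scaling was dropped or set by the median or by quantiles, normexp (offset 50) or the processed table of the authors replaced the main values, the brightest probe stood for a gene, and the filter was dropped. Normexp used the median signal, since the scanner tables hold no mean signal. Leaving out the wild-type log phase array equals slide as a block.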

Additional observations from a re-analysis of the deposited data

Results flagged for a closer look

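The ratio of ccr4Δ over wild-type for FLO5 was −0.49 on the log2 scale in stationary phase and 0.15 in log phase, a difference of −0.64 with opposite signs on the 2 pairs of arrays. The ratio of ccr4Δ pbp1Δ over ccr4Δ for FLO10 was 0.16 in stationary phase and −0.096 in log phase, a difference of 0.25. Its log phase sign turned with no scaling (0.046). For FLO11 the ratio of stationary over log phase was 0.24 in ccr4Δ pbp1Δ, 1.67 in ccr4Δ and −0.27 in wild-type cells, so the ratio was 1.94 larger in ccr4Δ and 0.51 larger in ccr4Δ pbp1Δ than in wild-type cells, with the sign of wild-type cells opposite to both. Under quantile normalization the ratio in ccr4Δ pbp1Δ cells was −0.52. None of these differences was tested, because each group has 1 array.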

How the results depend on the processing

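Of 378 ratios of the 7 genes under alternative settings, 330 stayed on their side of the 1.5-fold limit, 48 changed side and 0 of those past the limit changed sign. Of 192 such ratios of other named genes, 187 kept their side and 0 changed sign; the 5 others were of NRG1, SAG1 and SEO1. Dropping the filter on dim probes could change no count of the 7 genes, since all 8 of their probes passed it. The brightest probe could move YHR213W only, the sole gene of the set with 2 probes, and it changed no count. Its 63 ratios are among the 378 and all kept their side. In ccr4Δ over wild-type cells in stationary phase, 2 genes were lower with no scaling and 0 at a 2-fold limit (1 in the main setting). In log phase 2 were higher at a 2-fold limit (4), and 0 were lower with quantiles, with the authors' values and at 2-fold (1). In ccr4Δ pbp1Δ over ccr4Δ cells in log phase 1 was lower under all of no scaling, median scaling, quantile, normexp, the authors' values and 2-fold (2). In ccr4Δ pbp1Δ over wild-type cells in stationary phase 0 were lower under median scaling, quantile, normexp, the authors' values and 2-fold (2). For stationary over log phase, 2 genes were higher in ccr4Δ pbp1Δ cells with no scaling and 1 at 2-fold (4), 2 in ccr4Δ cells with no scaling and at 2-fold (5), and 3 in wild-type cells under quantile, normexp, the authors' values and 2-fold (5), with 1 lower under quantile and in the authors' values (0).

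With no scaling the median of all genes moved to −0.48 in ccr4Δ over wild-type in stationary phase, and 20.4% of the genes past the limit were higher, against 43.7% in the main setting. In ccr4Δ pbp1Δ over ccr4Δ it was 0.27 in stationary phase (80.5% higher, against 49.0%) and 0.15 in log phase (46.5%, against 17.9%).

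In the fit, genes called for stationary over log phase numbered 1 with no scaling and 1 to 4 with each array left out (4 in the main fit), where a lone array is assumed to vary like the others. For stationary over log phase, quantile normalization turned the difference of FLO9 to −0.035 and that of FLO11 to −0.016, the authors' values gave −0.033 and −0.015, and FLO11 ran from −0.016 to 0.96 when an array was left out. For ccr4Δ pbp1Δ over ccr4Δ, FLO5 turned to 0.064 with no scaling and ranged from −0.29 to 0.054 with an array left out, FLO10 from −0.10 to 0.16 and FLO11 from −1.68 to 0.011. The cause was not tested. No paired analysis was possible because each group has 1 array and the labels carry no replicate numbers to pair; the fit itself compares the growth phases within strains.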
